A study of Mus musculus with 9 samples.

Results

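The long intergenic noncoding RNAs (lincRNAs) of BV2 cells, an immortalised mouse microglial line, were followed through oxygen-glucose deprivation (OGD) with and without A-485, which inhibits P300, a histone acetyltransferase. Members were every gene with the biotype lincRNA in the deposited table and a mean of at least 1 FPKM (fragments scaled to gene length and to sequencing depth) over the 9 libraries. That rule took 256 of 5559 lincRNA genes, in a table of 54532 genes. The members were therefore chosen on measured levels, and a high level is not a finding about them. Of the other lincRNAs, 3615 were at 0 in every library and 1688 lay above 0 and under 1 FPKM.

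There were 3 groups of 3 libraries. Ctrl cells (treatment label normal) received complete medium, OGD cells received low-glucose medium with less serum in a hypoxic chamber, and OGD + A-485 cells (OGD_A_485 in the labels) received the inhibitor under OGD. No group received A-485 without OGD, so the inhibitor can be read only against deprived cells. All libraries came from 1 cell line, and nothing in the sources used here says that libraries of a group came from separate cultures, so p-values measure only the spread between these libraries, which may be technical.

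LincRNAs are transcribed from their own promoters between protein-coding genes, are usually spliced, and are not translated into long proteins. Some act where they are made, on neighbouring genes or on a whole chromosome. Others build nuclear bodies, bind proteins or microRNAs in the cytoplasm, or are cut into microRNAs. Many are transcribed from enhancer-like regions, where P300 is a well known acetyltransferase. In microglia and macrophages, lincRNAs are known among the genes that respond quickly to inflammatory and stress signals.

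The libraries held 12593250 to 16091038 reads on genes, and 1 read on a gene of 1 kb was worth 0.0618 to 0.0786 FPKM. Members are short and lowly read: their median gene length was 1185 bases against 4398 for protein-coding genes of at least 1 FPKM, the median member had 43.3 reads per library, and 64 members had under 20. The median coefficient of variation within a group was 16.2% for members and 5.54% for those protein-coding genes, so small changes were harder to detect. Of 10 microglia and macrophage markers, 9 were tested, and their summed level was 401 to 412 FPKM in Ctrl libraries, 517 to 542 in those of OGD and 834 to 879 in those of OGD + A-485. C1qa was listed at 0 in Ctrl and OGD and Siglech in every library, and the means of P2ry12 and Sall1 were under the 0.2 FPKM needed for testing. Of the homeostatic microglia list, Tmem119 had group means of 1.4, 1.34 and 1.33 FPKM, and Fcrls was called higher with A-485 (log2 fold change 2.42, from 0.0337 to 0.588 FPKM). The neuronal list summed to 0.388 to 0.676 FPKM, the fibroblast list to at most 0.0397 and the oligodendrocyte list to at most 2.36. The astrocyte list went from 26.5 to 28.8 FPKM in Ctrl libraries to 53.4 to 54.4 in those of OGD and 77.8 to 80.3 in those of the inhibitor group through Aldoc, a glycolytic enzyme, while Gfap stayed at or under 0.150. The part of these shifts in the lincRNA results was not tested. In bulk RNA, fewer cells of a kind and less RNA per cell cannot be told apart.

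Levels ran from 1.0 to 157 FPKM with a median of 2.42. There were 110 members from 1 to under 2 FPKM, 94 from 2 to under 5, 30 from 5 to under 10 and 22 of at least 10. The threshold was passed by Gm35037, with 1.33, 1.94 and 1.46 FPKM in Ctrl, 1.55, 1.21 and 0.843 in OGD and 0.406, 0 and 0.274 in OGD + A-485, and by Gm26510 at a mean of 1.0. Just outside were 2610035D17Rik, with 0.671, 0.993 and 0.67 FPKM in Ctrl, 1.33, 1.45 and 1.21 in OGD and 0.742, 0.985 and 0.948 in OGD + A-485, and 9330175E14Rik at a mean of 0.998. A group mean of at least 1 FPKM was reached in all 3 groups by 175 members, in 2 groups by 65 and in 1 group by 16. Of these 16, 3 reached it in Ctrl, 8 in OGD and 5 in OGD + A-485.

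The 8 members with the highest means were Malat1, Xist, Gm26917, Gm10076, Gm42047, 2900097C17Rik, Epb41l4aos and 4833427F10Rik, and they held 31.5% to 37.7% of the members' summed FPKM per library. Malat1 and Xist, both nuclear RNAs, are described with the characterised lincRNAs. Gm26917 (56.5 ± 19.1, 46.4 ± 5.0 and 45.8 ± 5.81 FPKM, SD, n = 3, in Ctrl, OGD and OGD + A-485) lies at a locus known to collect ribosomal RNA reads, and Gm10076 is a 384-base gene whose sequence is 99.5% identical to the ribosomal protein transcript Rpl41, so the level of both is uncertain. Gm10076 was not called in OGD + A-485 against OGD (log2 fold change 0.63, SE 0.27, adjusted p = 0.0827; limma, Benjamini-Hochberg), and passed the call without OGD + A-485 replicate 2 at a log2 fold change of 0.9.

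Gm42047, on chromosome 8 next to Klhdc4, was read at 57.9, 60.7 and 62.2 FPKM in Ctrl, 41.2, 44.5 and 47.4 in OGD and 22.2, 19.1 and 19 in OGD + A-485. It stepped down from group to group with no overlap of libraries, and its call was in the inhibitor comparison (log2 fold change -1.14, SE 0.072, adjusted p = 3.11e-06 for OGD + A-485 against OGD; -0.44 for OGD against Ctrl, under the threshold of 0.5; limma, Benjamini-Hochberg). Part of its sequence recurs in Gm47939, so reads may be shared. 4833427F10Rik, in the gene-dense region of the immediate early gene Ier3 on chromosome 17, was read at 25, 23.2 and 24.3 FPKM in Ctrl, 46.7, 49.4 and 52.6 in OGD and 23, 22.9 and 21.2 in OGD + A-485. The OGD libraries were all well above the others, the OGD + A-485 libraries lay just below Ctrl, and both changes were called (log2 fold change 1.03, SE 0.055, adjusted p = 2.35e-06 for OGD against Ctrl; log2 fold change -1.14, SE 0.055, adjusted p = 7.09e-07 for OGD + A-485 against OGD; limma, Benjamini-Hochberg).

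More lincRNAs were called higher than lower in OGD against Ctrl, and more were called lower than higher in OGD + A-485 against OGD. log2(FPKM + 0.1) values of the 16123 genes that averaged 0.2 FPKM or more entered a single limma fit, and a call needed p below 0.01 together with a log2 fold change beyond 0.5 in either direction. The pseudocount makes fold changes of low genes too small. In OGD against Ctrl, 63 of 256 members (24.6%) were called higher, against 11.2% of all genes tested, and 17 (6.64%) were called lower, against 9.81%. In OGD + A-485 against OGD, 22 members (8.59%) were called higher, against 12.2% of all genes, and 80 (31.2%) lower, against 13.4%. In OGD + A-485 against Ctrl, 47 members (18.4%) were called higher, against 17% of all genes, and 65 (25.4%) lower, against 16.6%.

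The median log2 fold change of members was 0.19, -0.24 and -0.14 in these comparisons, and that of all genes tested was 0.01, 0.01 and 0.02. Scaling to library totals moved the median of all genes in OGD + A-485 against Ctrl to -0.13 and that of members to -0.29, so levels against Ctrl carry that uncertainty. Members took 0.527% to 0.539% of the reads on genes in Ctrl libraries, 0.665% to 0.740% in those of OGD and 0.411% to 0.506% in those of the inhibitor group. Malat1, Xist and Neat1 (3 RNAs chosen after their values were seen) together took 0.2904% to 0.2997% of the reads in Ctrl libraries, 0.434% to 0.503% under OGD and 0.218% to 0.310% with the inhibitor. The other 253 members took 0.237% to 0.241%, 0.230% to 0.237% and 0.193% to 0.197%, so their summed share was not higher in OGD. As a share of summed FPKM, Ctrl and OGD + A-485 libraries overlapped. Antisense RNAs of at least 1 FPKM (209 genes) were called higher in OGD in 22.5% and lower in 6.7%, which is close to the members. With A-485 the antisense RNAs were called higher in 14.4% and lower in 18.7%, while the 10038 protein-coding genes of at least 1 FPKM split evenly, at 15.1% and 15.4%. Of the 175 members with at least 1 FPKM in all 3 groups, 44 (25.1%) were called higher and 12 (6.86%) lower in OGD against Ctrl, and 15 (8.57%) higher and 48 (27.4%) lower in OGD + A-485 against OGD. Of the 10861 genes that passed the same filter, the shares were 12.1% and 12.7%, and 13.3% and 13.7%. The 2 main comparisons share the OGD libraries, so a high OGD value enters both.

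**Figure D1:**
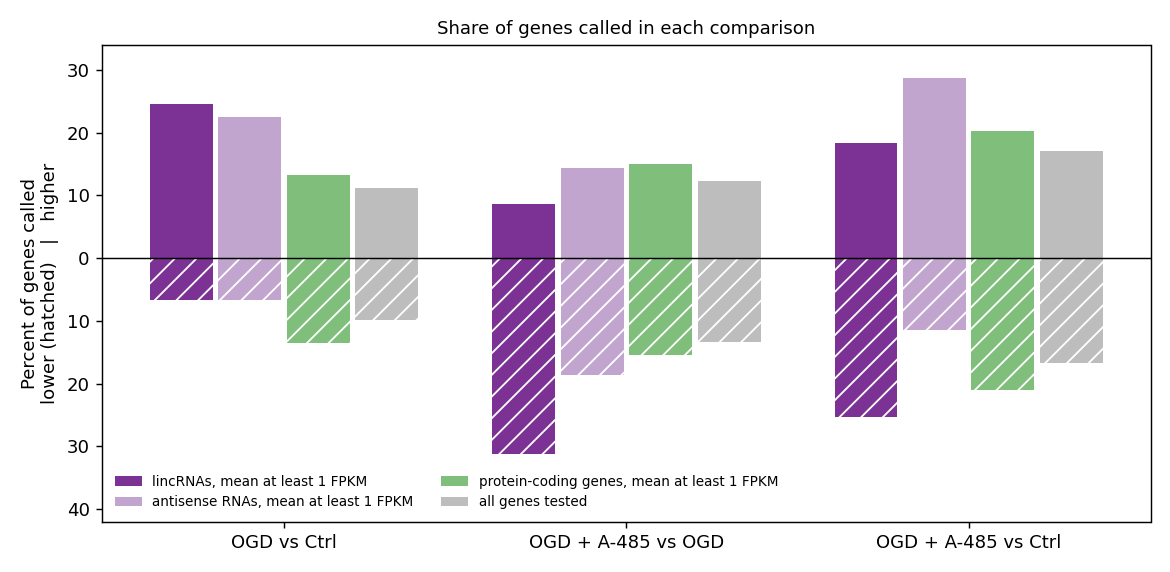
Percent of genes called higher (solid, above 0) and lower (hatched, below 0) in each comparison, for 256 lincRNAs and 209 antisense RNAs and 10038 protein-coding genes of at least 1 FPKM, and all 16123 genes tested. The lincRNA bars reach 24.6% higher in OGD against Ctrl and 31.2% lower in OGD + A-485 against OGD, above the bars of all genes.

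The 5 largest rises in OGD against Ctrl were of lincRNAs with means under 1 FPKM in Ctrl. The largest rises and falls given here and below were picked among calls without overlap of libraries. Separation of the groups compared was therefore a condition of the choice and is no result. Gm46189, on chromosome 10, was read at 0.349, 0 and 0.0959 FPKM in Ctrl, 1.46, 2.62 and 1.55 in OGD and 1.59, 1.67 and 3.23 in OGD + A-485. Gm35996, on chromosome 15, was read at 0.743, 0.817 and 0.932 FPKM in Ctrl, 2.88, 5.14 and 4.75 in OGD and 6.23, 5.63 and 6.67 in OGD + A-485. In both, the OGD libraries lay above every Ctrl library and the OGD + A-485 libraries stayed at OGD levels or above (log2 fold change 3.21, SE 0.53, adjusted p = 0.00103 for Gm46189 and log2 fold change 2.19, SE 0.2, adjusted p = 3.64e-05 for Gm35996 in OGD against Ctrl; limma, Benjamini-Hochberg). Gm35996 was not called with A-485, at a log2 fold change of 0.57, and passed without OGD replicate 2 at 0.72. Both lack a described function.

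Gm33424 was read at 0.291, 0.273 and 0.481 FPKM in Ctrl, 1.83, 2.09 and 2.49 in OGD and 0.266, 0.493 and 0.81 in OGD + A-485, and 1700092C17Rik at 0.177, 0.497 and 0.437 FPKM in Ctrl, 1.67, 1.81 and 3.02 in OGD and 0.807, 0.597 and 0.981 in OGD + A-485. Both reached 1 FPKM in OGD libraries only, so they are members through the group in which they are high. Separation of OGD from Ctrl was a condition of the choice, and no OGD library overlapped an OGD + A-485 library either. Gm33424 rose by 2.34 on the log2 scale in OGD and changed by -1.93 with A-485 (adjusted p = 4.95e-04 and 0.0013; limma, Benjamini-Hochberg), and rests on a mean of 3.56 reads per library, so its levels are coarse. 1700092C17Rik rose by 2.3 and changed by -1.32 (adjusted p = 6.39e-04 and 0.0117), on 6.56 reads per library. Its inhibitor call was lost without OGD replicate 3 (-1.06), OGD + A-485 replicate 1 (-1.34) or OGD + A-485 replicate 2 (-1.15).

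The fifth rise, Gm8013, was read at 0.162, 1.67 and 1.07 FPKM in Ctrl, 3.06, 4.82 and 2.31 in OGD and 4.15, 3.56 and 3.15 in OGD + A-485, with Ctrl replicate 1 far below the other Ctrl libraries. Its log2 fold change of 2.04 (SE 0.62, adjusted p = 0.0248; limma, Benjamini-Hochberg) lost its call in 13 of 20 alternatives and stood at 1.22 without Ctrl replicate 1. Its call in OGD + A-485 against Ctrl, at 2.18, was lost in 7 of 20, among them without OGD replicate 1 (2.18) and without OGD + A-485 replicate 1 (2.08), 2 (2.19) or 3 (2.27), and stood at 1.36 without Ctrl replicate 1. Without OGD replicate 1, 2 or 3 the OGD value was 2.08, 1.76 and 2.27, without Ctrl replicate 3 it was 2.3, and leaving out any OGD + A-485 library left it at 2.04, uncalled in each case.

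Among the 5 largest called falls in OGD, 2700038G22Rik had the highest level, with 9.63, 10.3 and 10.2 FPKM in Ctrl, 3.75, 4.48 and 4.28 in OGD and 4.64, 4.01 and 4.61 in OGD + A-485. D5Ertd605e was read at 4.64, 5.78 and 5.71 FPKM in Ctrl, 2.47, 1.85 and 2.3 in OGD and 2.91, 2.11 and 1.73 in OGD + A-485. Every Ctrl library of both lay above every deprived library, and the inhibitor group did not separate from OGD (log2 fold change -1.25, SE 0.085, adjusted p = 7.17e-06 and log2 fold change -1.25, SE 0.19, adjusted p = 6.6e-04 for OGD against Ctrl; limma, Benjamini-Hochberg; 0.08 and 0.01 for OGD + A-485 against OGD, not called). 4833413E03Rik was read at 3.16, 3.88 and 4.05 FPKM in Ctrl, 1.37, 1.34 and 1.66 in OGD and 3.19, 3.14 and 2.22 in OGD + A-485, and Gm17399 at 4.12, 4.99 and 4.29 FPKM in Ctrl, 1.93, 2.21 and 1.5 in OGD and 3.42, 3.32 and 2.82 in OGD + A-485. Here the OGD libraries were the lowest and the OGD + A-485 libraries lay above them, with both steps called (4833413E03Rik -1.28 and 0.91, Gm17399 -1.22 and 0.74).

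Gm20468 was read at 2.32, 3.26 and 3.55 FPKM in Ctrl, 1.04, 0.17 and 0.786 in OGD and 0.454, 0.14 and 0.614 in OGD + A-485, and its groups of Ctrl and OGD libraries did not overlap. The log2 fold change was -2.25 (SE 0.57, adjusted p = 0.0112; limma, Benjamini-Hochberg), on 9 reads per library. The call was lost without Ctrl replicate 2 (-2.19) or Ctrl replicate 3 (-2.13), and the value was -1.62 without OGD replicate 2.

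The changes with A-485 were larger. AI427809 and Gm43351 are members only through OGD + A-485, the group in which they are high. AI427809, a 2-exon RNA on chromosome 4 (GRCm38, chr4:53261356-53270232, - strand), was at 0 in all 6 Ctrl and OGD libraries and at 3.55, 4.2 and 4.57 FPKM in OGD + A-485. Against the floor of 3 reads in each OGD library it was at least 41.3-fold higher, and against that of Ctrl at least 43.3-fold. Gm43351 was read at 0, 0.431 and 0 FPKM in Ctrl, 0, 0.236 and 0.218 in OGD and 6.09, 9.32 and 7.87 in OGD + A-485, with 114 reads in OGD + A-485 and 2 in OGD, a ratio of 50.6 (95% exact interval of the counts 13.7 to 423). Intervals and floors cover counting error only. Against Ctrl its log2 fold change of 5.47 was 6.27 without Ctrl replicate 2, the only Ctrl library with reads.

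Further rises were of RNAs that were already present. Gm14275, on chromosome 2, was read at 9.05, 7.02 and 9.77 FPKM in Ctrl, 12.4, 9.82 and 9.59 in OGD and 54.1, 67.1 and 80.3 in OGD + A-485. B230312C02Rik, a 7-exon RNA of chromosome 2, was read at 0.396, 0.783 and 0.689 FPKM in Ctrl, 1.38, 1.31 and 1.75 in OGD and 13.2, 12.4 and 13.2 in OGD + A-485. The inhibitor libraries stood far above all 6 others (log2 fold change 2.64, SE 0.17, adjusted p = 3.49e-06 and log2 fold change 3.05, SE 0.21, adjusted p = 4.54e-06 against OGD; limma, Benjamini-Hochberg). B230312C02Rik was also called higher in OGD against Ctrl, at 1.16, and Gm14275 was not, at 0.3. Gm38832 was read at 0.561, 1.05 and 0.463 FPKM in Ctrl, 2.16, 0.96 and 0.533 in OGD and 5.13, 5.06 and 5.38 in OGD + A-485 and rose by 2.2 with A-485 (adjusted p = 0.00251).

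The largest falls with A-485 came close to a loss of the RNA. Gm13025, on chromosome 4 upstream of the chromatin factor gene Rcc2, was read at 12, 11.8 and 10.5 FPKM in Ctrl, 7.9, 5.94 and 7.52 in OGD and 0, 0.163 and 0.0596 in OGD + A-485. Gm14230, on chromosome 2, was read at 7.02, 7.11 and 7.47 FPKM in Ctrl, 5.53, 6.27 and 5.67 in OGD and 0.193, 0.119 and 0.0651 in OGD + A-485. Gm29340, a single-exon RNA of chromosome 2, was read at 1.63, 1.95 and 1.86 FPKM in Ctrl, 2.87, 2.93 and 2.95 in OGD and 0.16, 0.131 and 0.144 in OGD + A-485. Each fell below all 6 other libraries without overlap (log2 fold change -5.47, SE 0.3, adjusted p = 1.31e-06 for Gm13025, log2 fold change -4.75, SE 0.19, adjusted p = 2.17e-07 for Gm14230 and log2 fold change -3.62, SE 0.13, adjusted p = 1.57e-07 for Gm29340; limma, Benjamini-Hochberg). Gm29340 had been called higher in OGD at 0.66, a call lost with a pseudocount of 1 and with quantile normalization. Gm13025 was not called in OGD against Ctrl (-0.69), but was with a pseudocount of 1 (-0.62), by limma-voom (-0.68), in a fit of those groups alone, and without OGD + A-485 replicate 1 or 2, at an unchanged -0.69.

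Gm17745 was read at 1.99, 3.32 and 2.74 FPKM in Ctrl, 2.79, 2.68 and 2.77 in OGD and 0.0809, 0 and 0 in OGD + A-485, or 185 reads in OGD against 2 with the inhibitor, a ratio of 104 (95% exact interval 28.4 to 866). Gm35520, on chromosome 8, was read at 0.477, 0.985 and 0.63 FPKM in Ctrl, 2.0, 3.92 and 3.36 in OGD and 0.0873, 0 and 0 in OGD + A-485, which is 97 reads against 1, a ratio of 109 (19.1 to 4357). The Ctrl and OGD libraries of Gm17745 overlapped, while Gm35520 had first risen in OGD by 2.0 on the log2 scale, a call lost with a pseudocount of 0.01. The fitted changes with A-485 were -4.55 and -4.64 and depend on the pseudocount at so few reads. Gm35520 reached 1 FPKM in OGD libraries only, so it is a member through the group in which it is high. Gm35037, the member just inside the threshold, was also called lower with A-485 (-2.25), not so without OGD replicate 1 (-2.06) or 2 (-2.23), and it stood at -1.55 without OGD + A-485 replicate 2. Against Ctrl its -2.64 became -1.93 without the latter library.

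**Figure D2:**
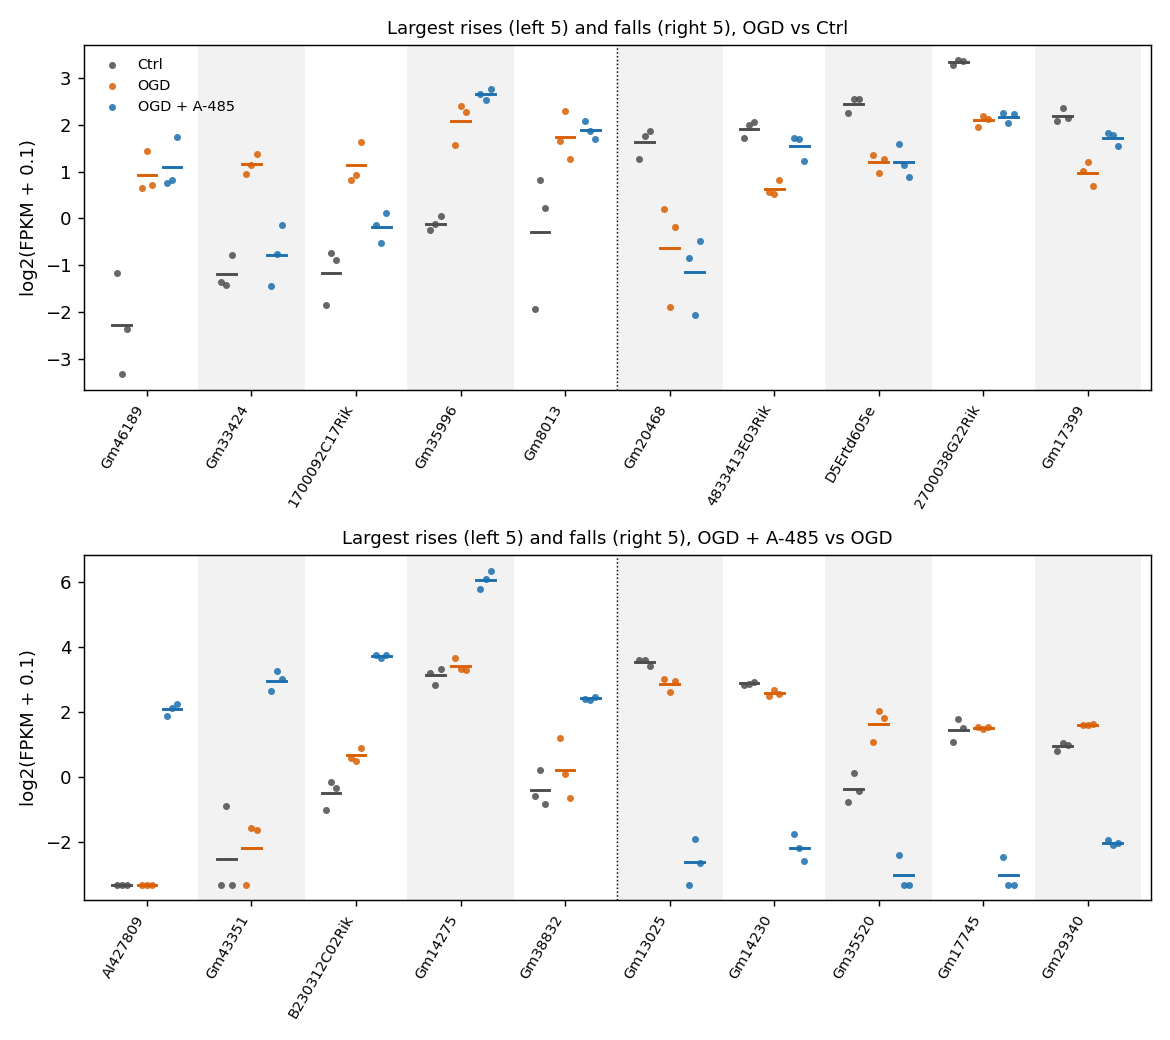
log2(FPKM + 0.1) of the members with the 5 largest rises and 5 largest falls in OGD against Ctrl (top) and OGD + A-485 against OGD (bottom). Points are libraries and bars are group means (n = 3); AI427809 is at 0 in all Ctrl and OGD libraries, and the OGD + A-485 points of Gm13025, Gm14230, Gm35520, Gm17745 and Gm29340 lie at the bottom, below all others.

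Of the lncRNAs with a described function that were looked up, 18 were members. Malat1, an abundant RNA of nuclear speckles, was read at 97.8, 99 and 82.4 FPKM in Ctrl, 198, 219 and 193 in OGD and 176, 227 and 122 in OGD + A-485. The OGD libraries were all above Ctrl (log2 fold change 1.13, SE 0.19, adjusted p = 0.00136; limma, Benjamini-Hochberg), while the OGD + A-485 libraries spread on both sides of OGD and were not called against it (-0.26). Neat1, its neighbour on chromosome 19 and the scaffold RNA of paraspeckles, was read at 18.9, 20.7 and 20.6 FPKM in Ctrl, 32.9, 36.7 and 39.4 in OGD and 12.3, 11.6 and 11.7 in OGD + A-485. Its groups were fully separated, with OGD highest and OGD + A-485 below Ctrl (log2 fold change 0.85, SE 0.068, adjusted p = 1.75e-05 for OGD against Ctrl; log2 fold change -1.6, SE 0.068, adjusted p = 3.41e-07 for OGD + A-485 against OGD; -0.75 for OGD + A-485 against Ctrl).

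Of the genes of 14 proteins of paraspeckles, 0 were called higher and 4 lower in OGD, against 11.2% and 9.81% of all genes tested. Most were not called, but all except Dazap1 (0.08) had a negative log2 fold change in OGD, with a median of -0.4. With A-485, 2 were called higher and 1 lower, against 12.2% and 13.4% of all genes. Their summed level was 618 to 644 FPKM in Ctrl libraries, 498 to 512 in those of OGD and 472 to 496 in the inhibitor group. Sfpq, a core paraspeckle protein needed to hold Neat1 stable, had means of 67.9, 29.7 and 47.6 FPKM in these groups, with log2 changes of -1.19 in OGD and 0.68 with A-485, both called.

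Xist, which coats the inactive X chromosome, was read at 94.6, 97.5 and 99.9 FPKM in Ctrl, 124, 149 and 123 in OGD and 68.2, 73.9 and 66.4 in OGD + A-485. Its OGD libraries were the highest and its OGD + A-485 libraries the lowest, with no overlap. The rise in OGD was under the call threshold (log2 fold change 0.43, SE 0.076, adjusted p = 0.00155; limma, Benjamini-Hochberg) and the change with A-485 was called (log2 fold change -0.92, SE 0.076, adjusted p = 1.45e-05). Against Ctrl it was -0.49, not called, and passed without Ctrl replicate 1 (-0.51), without OGD + A-485 replicate 2 (-0.53), when scaled to library totals (-0.65) and after quantile normalization (-0.64). Jpx, an activator of Xist transcribed from the opposite strand next to it, was read at 3.18, 3.46 and 3.56 FPKM in Ctrl, 2.82, 3.26 and 2.42 in OGD and 1.4, 1.76 and 1.16 in OGD + A-485. It was lower with A-485 in every library (log2 fold change -0.94, SE 0.16, adjusted p = 0.00107), and not called in OGD against Ctrl (-0.26). Whether reads were counted by strand is not given in the sources used here; the antisense gene Tsix, which overlaps Xist, had group means of 0.004, 0.004 and 0.003 FPKM.

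Mirt1, an RNA first described in injured heart muscle, was read at 2.61, 2.79 and 2.63 FPKM in Ctrl, 4.15, 4.75 and 4.58 in OGD and 1.97, 1.64 and 1.91 in OGD + A-485. The OGD libraries were highest and the OGD + A-485 libraries lowest, without overlap (log2 fold change 0.72, SE 0.094, adjusted p = 2.66e-04 for OGD against Ctrl; log2 fold change -1.25, SE 0.094, adjusted p = 8.52e-06 for OGD + A-485 against OGD; limma, Benjamini-Hochberg). Against Ctrl the call at -0.52 was lost with a pseudocount of 1 (-0.38), without Ctrl replicate 2 (-0.49) and without OGD + A-485 replicate 2 (-0.45). Ptgs2os2, downstream of the cyclooxygenase gene Ptgs2, was read at 2.49, 2.69 and 3.19 FPKM in Ctrl, 2.16, 2.73 and 2.0 in OGD and 2.39, 2.76 and 2.94 in OGD + A-485, with groups that overlapped and no call, although Ptgs2 itself had means of 17.4, 185 and 64.3 FPKM (3.39 and -1.51, both called).

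The small nucleolar RNA host genes are spliced RNAs whose introns release guides for ribosomal RNA modification. Snhg6 was read at 20.1, 21.1 and 23 FPKM in Ctrl, 41.3, 29.7 and 28.4 in OGD and 26.8, 32.2 and 38 in OGD + A-485. Its OGD libraries lay above Ctrl (log2 fold change 0.61, SE 0.16, adjusted p = 0.0128; limma, Benjamini-Hochberg), a call lost in 5 of 20 alternatives, among them without Ctrl replicate 1 (0.57), without Ctrl replicate 2 (0.6), without OGD replicate 1 (0.44) and with the replicate number as a block (0.61). Snhg12 had means of 2.73, 3.06 and 4.0 FPKM and Snhg20 5.48, 4.84 and 6.15 in Ctrl, OGD and OGD + A-485, and neither was called in OGD or with A-485. Snhg12 was called against Ctrl in the inhibitor group at 0.53, not so without Ctrl replicate 1 (0.44) or OGD + A-485 replicate 1 (0.43). Snhg6 in that comparison, at 0.58, lost its call in 8 of 20 alternatives (0.54 without Ctrl replicate 1, 0.57 without Ctrl replicate 2, 0.63 without Ctrl replicate 3, 0.58 without OGD + A-485 replicate 2 and 0.46 without OGD + A-485 replicate 3).

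2900097C17Rik, the mouse counterpart of Norad, which binds Pumilio proteins in the cytoplasm, was read at 46.3, 47.6 and 47.6 FPKM in Ctrl, 34.8, 32.9 and 34.6 in OGD and 44.6, 40.0 and 43.7 in OGD + A-485. The OGD libraries were the lowest, without overlap, but at -0.47 the change was under the call threshold (it passed at -0.53 when scaled to library totals), and 0.32 with A-485 was not called. 1700020I14Rik, known as Cyrano or Oip5os1 and a partner of the microRNA miR-7, had means of 14.7, 17.4 and 19.7 FPKM and no call, while its neighbour Oip5 had means of 13.7, 8.99 and 5.02 and was called lower in both comparisons (-0.6 and -0.82). Pvt1, downstream of Myc, had means of 1.38, 1.63 and 1.84 FPKM and no call, while Myc was at 0.862, 2.83 and 2.08 FPKM and was called higher in OGD (1.61). Against Ctrl the inhibitor value of Pvt1 passed without Ctrl replicate 2, at 0.5.

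Epb41l4aos was read at 16.4, 27.6 and 23.8 FPKM in Ctrl, 45.1, 36.3 and 37.2 in OGD and 30.9, 31.9 and 48.7 in OGD + A-485, and its call in OGD (log2 fold change 0.83, SE 0.22, adjusted p = 0.0142; limma, Benjamini-Hochberg) was lost without Ctrl replicate 1 (0.62), Ctrl replicate 3 (0.89), or OGD replicate 1 (0.73), 2 (0.89) or 3 (0.87), and with no trend in the prior variance. Against Ctrl in the inhibitor group its 0.72 was not called and passed without Ctrl replicate 2 at 0.88. 1810058I24Rik, which encodes a mitochondrial micropeptide despite its biotype, had means of 12.5, 11.4 and 15.9 FPKM and no call, and passed with A-485 without OGD replicate 3 (0.54) or OGD + A-485 replicate 1 (0.5). Among listed lncRNAs that are no members, Meg3, H19, Miat, Hotair and Rmst were at or near 0, while Mir22hg (1.57), Ptgs2os (1.52) and Firre (0.59), all of another biotype, were called higher in OGD. With A-485, Snhg4 (1.25) and Snhg15 (0.59), also of another biotype, were called higher, and Ftx (-0.69), a lincRNA under the threshold, was called lower.

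**Figure D3:**
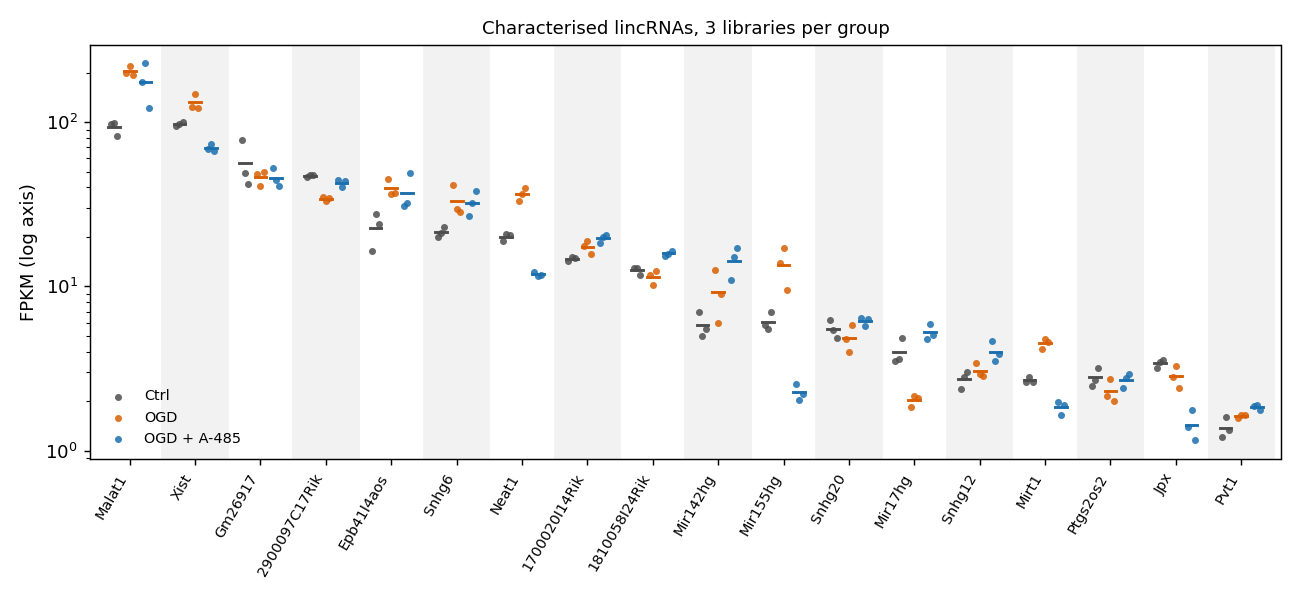
FPKM (log axis) of the 18 characterised lincRNAs in 3 libraries per group, ordered by mean, with bars at group means. Neat1, Mir155hg and Mirt1 are highest in OGD and lowest in OGD + A-485, Mir17hg is lowest in OGD, and the Malat1 libraries of OGD + A-485 spread from 122 to 227 FPKM.

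Some lincRNAs are precursors of microRNAs, short RNAs that pair with messenger RNAs through a seed at bases 2 to 8. The search for mature microRNAs within members did not cover every chromosome. On the chromosomes covered, 7 members contain mature microRNAs on their own strand, which number 22 and have 20 different seeds. The libraries measured the host RNAs and not the mature microRNAs. Mature sequences of the hosts that changed and of the blood cell host Mir142hg are given from RefSeq (GRCm38.p6), 5′ to 3′, with the seed in capitals, to show which of them share a seed.

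miR-155-5p: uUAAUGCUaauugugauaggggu
miR-17-5p: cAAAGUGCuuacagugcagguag
miR-20a-5p: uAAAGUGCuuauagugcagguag
miR-18a-5p: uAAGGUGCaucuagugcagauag
miR-19a-3p: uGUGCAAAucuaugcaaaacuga
miR-19b-3p: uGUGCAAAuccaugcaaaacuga
miR-92a-3p: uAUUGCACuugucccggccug
miR-101a-3p: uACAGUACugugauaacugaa
miR-142a-5p: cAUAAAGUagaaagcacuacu
miR-142a-3p: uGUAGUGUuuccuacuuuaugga

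Mir155hg, formerly BIC, is the host of miR-155, which is known to sustain inflammatory activation of macrophages and microglia. The mature strand lies at chr16:84714143-84714165 on the + strand, within the host. The host was read at 5.8, 5.49 and 6.94 FPKM in Ctrl, 13.9, 17.1 and 9.53 in OGD and 2.53, 2.03 and 2.23 in OGD + A-485. All OGD libraries were above Ctrl and all OGD + A-485 libraries below it (log2 fold change 1.11, SE 0.2, adjusted p = 0.00162 for OGD against Ctrl; log2 fold change -2.49, SE 0.2, adjusted p = 1.08e-05 for OGD + A-485 against OGD; -1.38 for OGD + A-485 against Ctrl; limma, Benjamini-Hochberg). Its neighbour Mrpl39 had means of 29.5, 24.6 and 20.8 FPKM. It was not called in OGD against Ctrl (-0.26) or in OGD + A-485 against OGD (-0.24), and was called lower in OGD + A-485 against Ctrl (-0.51).

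Mir17hg carries the miR-17-92 cluster, a target of Myc and E2F factors that is known for promoting proliferation. miR-17-5p and miR-20a-5p share the seed AAAGUGC, and miR-19a-3p and miR-19b-3p share GUGCAAA. The host was read at 3.51, 3.59 and 4.86 FPKM in Ctrl, 1.84, 2.15 and 2.09 in OGD and 4.78, 5.93 and 5.04 in OGD + A-485. The OGD libraries were the lowest and the OGD + A-485 libraries reached or passed Ctrl (log2 fold change -0.93, SE 0.14, adjusted p = 6.09e-04 for OGD against Ctrl; log2 fold change 1.33, SE 0.14, adjusted p = 5.96e-05 for OGD + A-485 against OGD; limma, Benjamini-Hochberg). Against Ctrl the inhibitor group stood at 0.4, not called, and at 0.54, called, without Ctrl replicate 3.

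E130102H24Rik, the host of miR-101a and no member of the list of characterised RNAs, was read at 1.39, 1.91 and 1.48 FPKM in Ctrl, 3.42, 4.18 and 2.94 in OGD and 2.31, 2.41 and 1.96 in OGD + A-485, and was described for its microRNA after its values had been seen. Its OGD libraries were highest (1.09 in OGD and -0.63 with A-485, both called). Mir142hg, whose microRNAs are restricted to blood cells, was read at 6.96, 4.96 and 5.51 FPKM in Ctrl, 12.6, 6.0 and 8.99 in OGD and 10.9, 15.1 and 17 in OGD + A-485. Its libraries overlapped between Ctrl and OGD and between OGD and OGD + A-485, with no call (0.6 and 0.68), and the first passed without OGD replicate 2 (0.87) and the second without OGD replicate 1 (0.93). Against Ctrl the inhibitor group was called higher (log2 fold change 1.28, SE 0.27, adjusted p = 0.00282; limma, Benjamini-Hochberg). The 4 hosts thus did not share a direction.

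For each member, the protein-coding gene with the nearest listed gene start was taken as its neighbour, at a median distance of 31706 bases. The listed start is the lower coordinate, which is where a gene on the - strand ends. Another gene can therefore lie nearer by transcription start or by gene body. The neighbour lay on the same strand without overlap for 126 members, divergently for 60 and convergently for 50, and overlapped 20. In 23 pairs the start ends lay within 2 kb on opposite strands, the arrangement of a shared bidirectional promoter. The neighbour was tested for 212 members. Across these pairs the log2 fold changes correlated weakly, with Pearson's r of 0.26 in OGD against Ctrl, 0.37 in OGD + A-485 against OGD and 0.43 in OGD + A-485 against Ctrl. Adjacent protein-coding genes, over 7119 pairs, gave 0.16, 0.25 and 0.21. The pairs share libraries and, in part, neighbours, so these values are a description.

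Among called members with a tested neighbour, 39 of 63 (61.9%) had a neighbour with a fold change of the same sign in OGD against Ctrl, 57 of 85 (67.1%) in OGD + A-485 against OGD and 65 of 92 (70.7%) in OGD + A-485 against Ctrl. For called protein-coding genes and their adjacent gene the shares were 58.0%, 63.7% and 59.4%. With the smallest gap between gene bodies in place of the nearest listed start, the member shares were 53.1%, 73.0% and 74.5%. With the nearest transcription start they were 62.7%, 68.6% and 74.2%. Of 49 members called higher in OGD, 14 had a neighbour called higher and 2 a neighbour called lower. Of 67 members called lower with A-485, 23 had a neighbour called lower and 2 a neighbour called higher. Of the 14 members called lower in OGD, 1 had a neighbour called lower and 3 a neighbour called higher. Over all genes tested, 11.2% were called higher and 9.81% lower in OGD, and 12.2% higher and 13.4% lower with A-485. Directions were not counted for neighbours of uncalled members, so these counts are a description. A neighbour called in either direction stood beside 20 of 63 called members (31.7%) and 46 of 149 uncalled members (30.9%) in OGD against Ctrl. The shares were 36.5% and 28.3% in OGD + A-485 against OGD, and 53.3% and 35.8% in OGD + A-485 against Ctrl.

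**Figure D4:**
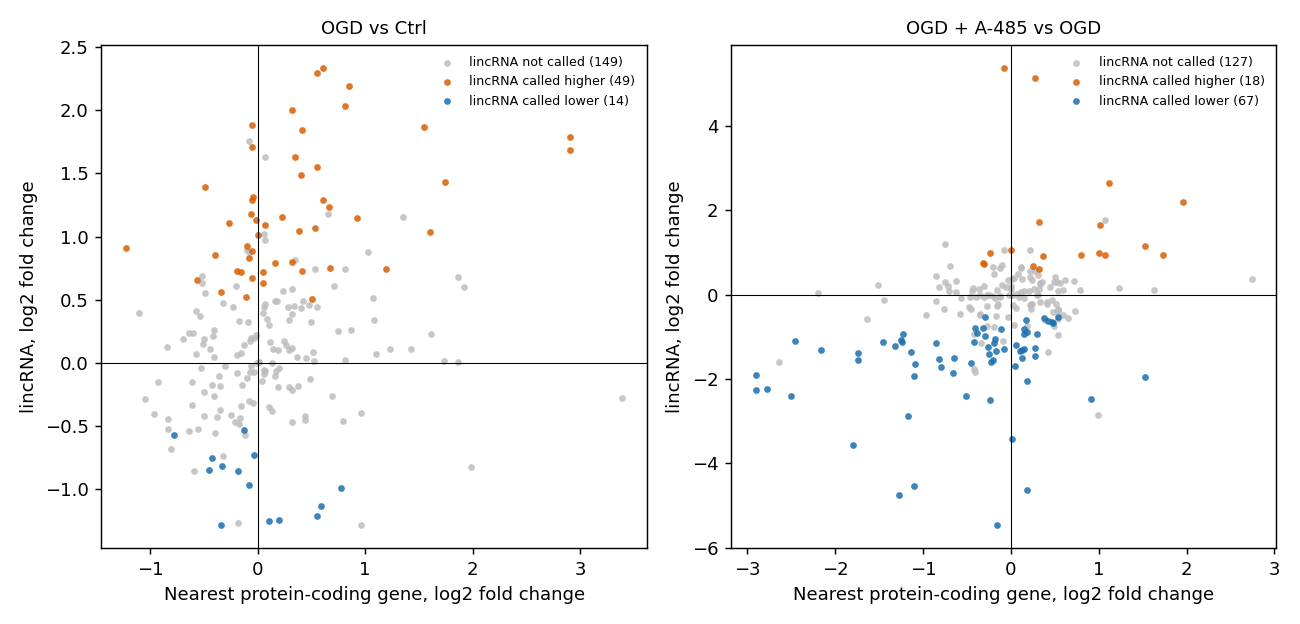
log2 fold change of each lincRNA against that of its nearest protein-coding gene, for 212 pairs, in OGD against Ctrl (left) and OGD + A-485 against OGD (right). Colours give the call of the lincRNA; points lie on both sides of 0 on each axis in both panels, and r is 0.26 and 0.37.

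The neighbours of the members with the largest changes showed the same mixture. Gm33424 lies 35129 bases from Nfil3, a leucine zipper repressor, on the opposite strand. Nfil3 was read at 27.5, 28.2 and 29.2 FPKM in Ctrl, 42.7, 44.9 and 42.1 in OGD and 21, 18.6 and 20.7 in OGD + A-485, and like Gm33424 it was called higher in OGD (0.61) and lower with A-485 (-1.1). Basp1, which lies 234873 bases from Gm35996, rose from 165 ± 1.82 to 299 ± 22.4 FPKM (SD, n = 3) in OGD. It was at 361 ± 19.4 with A-485, the same order as the lincRNA. Apbb1ip beside 1700092C17Rik and Bmp2k beside Gm8013 were also called higher in OGD (0.55 and 0.82). Cmc1, whose start lies 54 bases from that of Gm17399 on the opposite strand, was called higher in OGD (0.55) where Gm17399 was called lower (-1.22), and Pknox1, Pan3 and Tomm7, beside the other falls, were not called (-0.34, 0.1 and 0.2). Gm49339 beside Gm46189 and Nkx2-5 beside Gm20468 were too low to test.

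With A-485, Tgif2, a transcriptional repressor of TGF-β signalling that starts 115 bases from Gm14230 on the opposite strand, was read at 3.07, 2.44 and 2.22 FPKM in Ctrl, 2.44, 2.27 and 2.54 in OGD and 1.02, 1.09 and 0.742 in OGD + A-485. Like Gm14230, it was lower in every inhibitor library than in any other (log2 fold change -1.27, SE 0.17, adjusted p = 2.18e-04; limma, Benjamini-Hochberg). Elk3, next to Gm17745, was read at 14.7, 14.1 and 13.5 FPKM in Ctrl, 12.6, 12.2 and 12.2 in OGD and 6.0, 5.51 and 5.55 in OGD + A-485 and was also called lower (-1.1). Atoh8 beside Gm38832 was called higher at 1.96 from a mean of 0.0699 FPKM in OGD, and Mc3r beside Gm14275 had 1.12 and was not called. The neighbours of the other extremes were not called. Slc44a1, 170181 bases from AI427809, was at -0.08 and Rpl34, 143675 bases from Gm43351, at 0.27. Rcc2 was at -0.15 beside Gm13025 and Lonrf1 at 0.18 beside Gm35520. Gata5 beside B230312C02Rik was listed at 0 in every library, and Tmco5 beside Gm29340 was too low to test.

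At several loci a gene other than the neighbour taken above had changes like those of the lincRNA, and these loci were picked after their values had been seen. AI427809 lies on the same strand as Abca1, the cholesterol exporter, which had means of 4.14, 4.2 and 8.3 FPKM and was called higher with A-485 (0.97). The 5′ end of Abca1 lies at -110.3 kb from that of AI427809, nearer than that of Slc44a1 at 170.2 kb. Gm13025 lies in a region with Padi3 and Padi1, which code for enzymes that convert arginine to citrulline in proteins, at 2.21, 2.51 and 0.903 and 0.821, 4.05 and 0.113 FPKM. Both were called lower with A-485 (-1.38 and -4.28), Padi1 after a called rise in OGD (2.17), while Rcc2, which lies between, was not. Arhgef10l, on the other side, has its 5′ end at -13.7 kb from that of Gm13025, nearer than that of Rcc2 at 20.8 kb. Arhgef10l was not called with A-485 (-0.01). Around Gm14230, Sla2, an adaptor of antigen receptor signalling, had means of 8.11, 4.73 and 0.502 FPKM and fell by 3.01 on the log2 scale with A-485, and Rab5if, between Tgif2 and Sla2, was not called (0.24).

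Gm11419 and Gm31522 overlap on opposite strands of chromosome 11, upstream of the chemokine genes Ccl2 and Ccl7. Gm11419 was read at 2.63, 1.95 and 1.81 FPKM in Ctrl, 5.64, 8.55 and 7.08 in OGD and 1.4, 1.39 and 1.32 in OGD + A-485, and Gm31522 at 1.47, 1.29 and 1.86 FPKM in Ctrl, 4.64, 7.96 and 4.57 in OGD and 1.17, 1.41 and 1.64 in OGD + A-485. The OGD libraries of both stood above all others (log2 fold change 1.69, SE 0.17, adjusted p = 6.82e-05 and log2 fold change 1.79, SE 0.23, adjusted p = 2.75e-04 in OGD against Ctrl; -2.27 and -1.91 for OGD + A-485 against OGD, called; limma, Benjamini-Hochberg). Ccl2, which starts 50.2 kb from Gm11419, had means of 399.9, 772 and 387 FPKM, and Ccl7 had 108, 369.8 and 117. Both chemokines were called higher in OGD (0.95 and 1.76) and lower with A-485 (-1.0 and -1.66), while Ccl12, 116 kb away, was called higher in OGD (1.11) and not called with A-485 (0.39). Reads of overlapping genes cannot be told apart if strand was not used in counting, so the pair may hold 1 signal.

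Mirt1 overlaps another member, 4833407H14Rik, on the opposite strand, and the latter was read at 2.42, 2.79 and 2.33 FPKM in Ctrl, 3.49, 5.84 and 3.83 in OGD and 1.84, 2.05 and 1.49 in OGD + A-485 with changes of 0.75 and -1.22, close to those of Mirt1. Dusp5, a phosphatase of the kinase ERK, starts 64.3 kb away. It had means of 20.8, 33.4 and 13.3 FPKM and was called in the same directions (0.68 and -1.32). Smndc1, the neighbour by the lower coordinate, was not called (-0.19 and -0.27). The 5′ end of Smndc1, at -74.2 kb from that of Mirt1, is farther than that of Dusp5. In other pairs the neighbour by the lower coordinate was itself called with the lincRNA. These, chosen after their values were seen, were 5430425K12Rik and Arrdc3, at 2.16, 5.97 and 1.06 FPKM for the lincRNA, with changes in OGD of 1.43 and 1.74 and with A-485 of -2.4 and -2.51, and Gm13431 beside the cyclooxygenase gene Ptgs1, with 1.55 and 0.55 in OGD and -1.64 and -1.09 with A-485. All 8 of these changes were called.

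**Figure D5:**
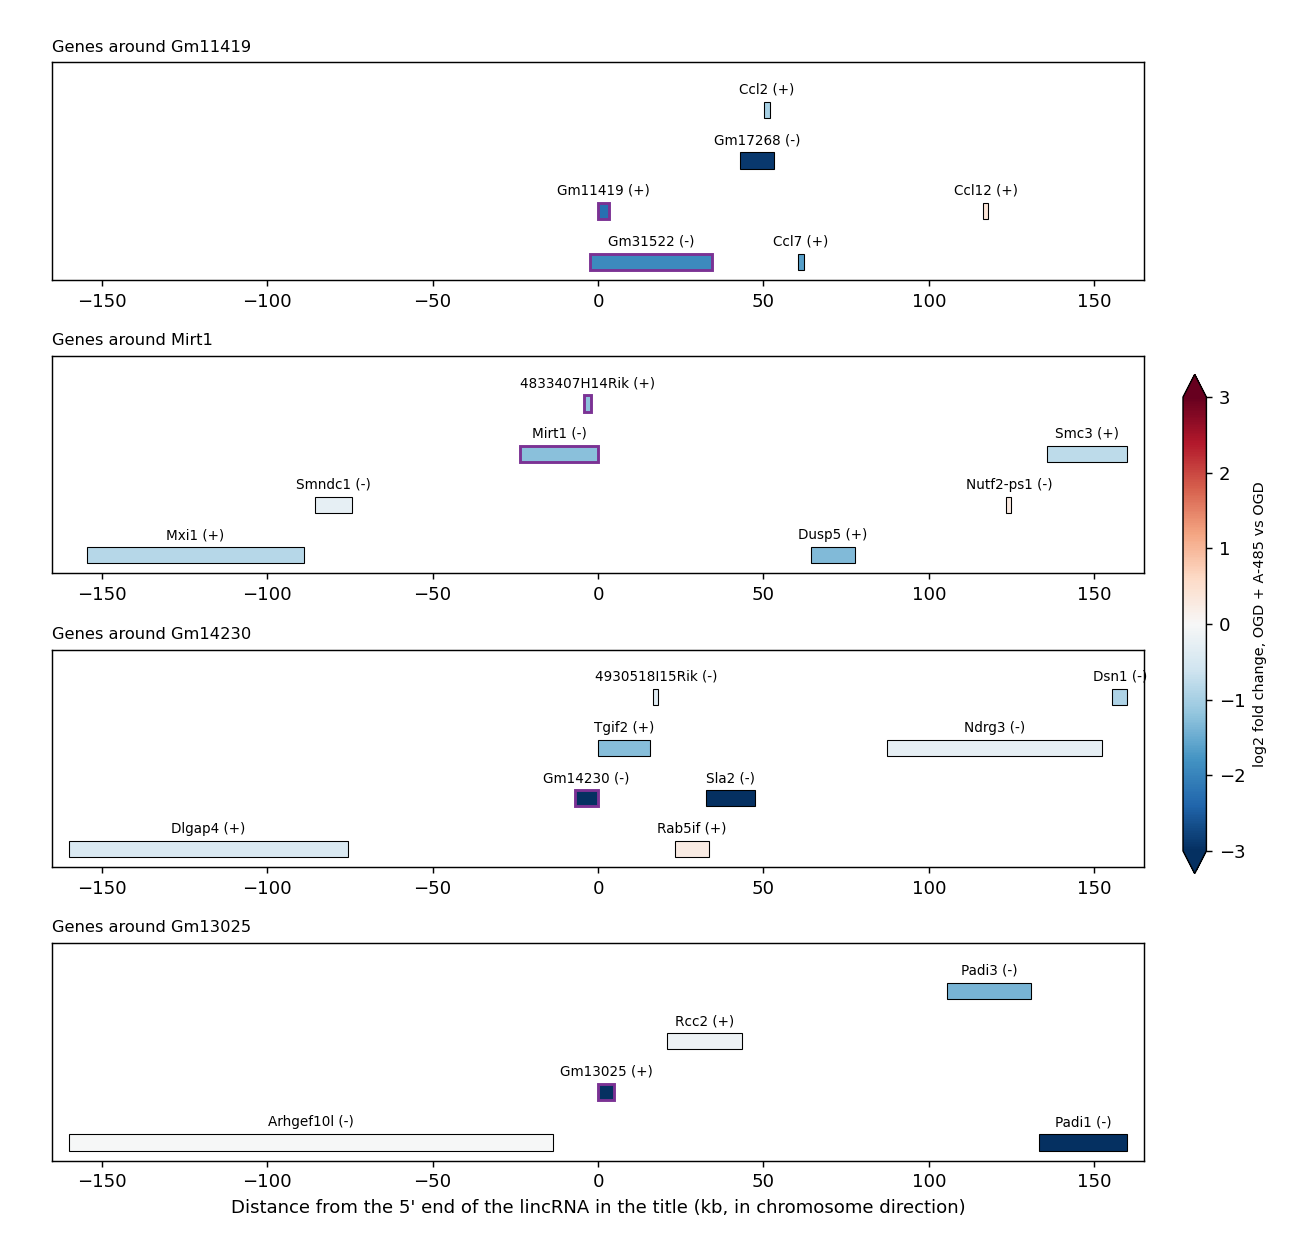
Protein-coding genes and lincRNAs (purple outline) tested around Gm11419, Mirt1, Gm14230 and Gm13025, to scale in kb from the 5′ end of the lincRNA named, with strand in brackets and boxes cut at the panel edge; colour is the log2 fold change in OGD + A-485 against OGD. Genes of low change, such as Rcc2 (-0.15) and Rab5if (0.24), lie between strongly lower ones.

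Members also lay near each other: 64 of them formed 30 clusters, in which each member started within 100 kb of the end reached by those before it. The clusters named here were chosen after their values had been seen. In 7 clusters at least 2 members were called in OGD against Ctrl and in 8 with A-485, and no cluster held calls in both directions. Over all members, 24.6% were called higher and 6.64% lower in OGD, and 8.59% higher and 31.2% lower with A-485. A shared direction is therefore no finding about clusters. Some of these clusters are pairs that overlap or share exons, such as Mirt1 and 4833407H14Rik, and may hold 1 signal. The largest held 4 lincRNAs near Ctnnb1 on chromosome 9, Gm39459, Gm34425, Gm47070 and Gm39460, of which 2 overlap on opposite strands. All were called higher in OGD (0.89, 1.88, 1.71 and 1.29), Ctnnb1 was not (-0.06), and none of the 4 was called with A-485. Gm34425 was read at 0.472, 0.379 and 0.278 FPKM in Ctrl, 1.56, 1.5 and 1.86 in OGD and 1.64, 1.92 and 1.69 in OGD + A-485, with every deprived library above Ctrl. The cluster of Gm35520 and Gm38414 on chromosome 8 was called higher in OGD and lower with A-485 as a pair (0.8 and -2.04 for Gm38414). Gm14321 and 9230111E07Rik, which share exon sequence upstream of the transcription factor gene Cebpb, were both called lower with A-485 (-1.28 and -1.45) while Cebpb was not called (0.28).

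Promoters were searched for short motifs of factors known to act in hypoxia and inflammation. RefSeq promoters (GRCm38.p6, 250 bases before to 50 after the start) matched 132 members by symbol, and for 94 the RefSeq start lay within 200 bases of the deposited 5′ end. ACGTG, the core of the hypoxia response element, was present on either strand in 27.7% of these 94 and in 19.6% of all 32851 promoters of that length. TGANTCA, the AP-1 motif, was present in 13.8% and 7.81%, TGACGTNA, the cAMP response element, in 7.45% and 2.93%, and GGANTTTCC, a part of the NF-kB site, in 2.13% and 1.25%. ACGTG and TGACGTNA can share bases. Of the 24 promoters of members called higher in OGD, 9 held ACGTG, 6 TGANTCA and 1 TGACGTNA. Of the 7 of members called lower in OGD, 1 held ACGTG and 0 held TGANTCA or TGACGTNA. Of the 35 of members called lower with A-485, 11 held ACGTG, 8 TGANTCA and 5 TGACGTNA. Of the 8 of members called higher with A-485, 2 held ACGTG, 2 TGANTCA and 0 TGACGTNA. GGANTTTCC was held by 0 of these 24, 1 of the 7, 1 of the 35 and 0 of the 8. These sets are small. These are descriptions of letters in short windows, and binding was not measured.

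The promoters of 4 members whose changes are given above, each with a motif, are printed 5′ to 3′ with the motif in capitals. They show the ACGTG core before Malat1 at position -43 from the RefSeq start and before 4833427F10Rik at -73, and the AP-1 motif before Mirt1 at -140 and before Gm13025 at -224. Other named members with ACGTG differed in their calls in OGD. Gm8013, with the core at -240, was called higher, Gm17399, at -44, was called lower, and Ptgs2os2, at -141, was not called. 2700038G22Rik, Gm14275, Xist and Snhg12 hold none of the motifs searched.

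Malat1, chr19:5802623-5802922, - strand: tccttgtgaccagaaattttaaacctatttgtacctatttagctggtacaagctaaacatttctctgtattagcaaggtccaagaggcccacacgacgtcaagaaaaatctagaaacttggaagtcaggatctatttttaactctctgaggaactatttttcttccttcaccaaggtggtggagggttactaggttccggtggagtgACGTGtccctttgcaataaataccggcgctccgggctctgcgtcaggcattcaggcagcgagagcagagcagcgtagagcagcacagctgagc
4833427F10Rik, chr17:35772200-35772499, + strand: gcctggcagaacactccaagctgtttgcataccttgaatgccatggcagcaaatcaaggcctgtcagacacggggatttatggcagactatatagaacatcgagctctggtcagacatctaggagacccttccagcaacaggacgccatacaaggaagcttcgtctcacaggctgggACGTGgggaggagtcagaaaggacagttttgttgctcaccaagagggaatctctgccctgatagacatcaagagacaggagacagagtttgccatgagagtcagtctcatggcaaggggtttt
Mirt1, chr19:53464747-53465046, - strand: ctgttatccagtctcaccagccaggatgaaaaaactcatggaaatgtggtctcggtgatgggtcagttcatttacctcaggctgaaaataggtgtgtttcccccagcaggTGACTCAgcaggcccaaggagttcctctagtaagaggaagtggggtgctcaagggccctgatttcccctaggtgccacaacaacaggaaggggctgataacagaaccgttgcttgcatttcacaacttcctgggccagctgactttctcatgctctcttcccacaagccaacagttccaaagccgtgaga
Gm13025, chr4:140679495-140679794, + strand: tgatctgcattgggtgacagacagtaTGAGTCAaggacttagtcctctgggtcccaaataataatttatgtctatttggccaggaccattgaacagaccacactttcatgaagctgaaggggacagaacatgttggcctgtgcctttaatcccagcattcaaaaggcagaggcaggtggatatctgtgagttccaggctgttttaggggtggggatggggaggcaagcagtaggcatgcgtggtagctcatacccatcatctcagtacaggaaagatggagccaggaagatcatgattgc

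Malat1 and 4833427F10Rik were both called higher in OGD, and 4833427F10Rik alone was called with A-485. Mirt1 and Gm13025 were both called lower with A-485, and Mirt1 alone was called in OGD. GC content of the 4 windows was 47.0%, 51.0%, 51.3% and 48.3%.

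In structure, all 256 members were found in GENCODE M21, 250 of them with identical GRCm38 coordinates, and 253 are typed lincRNA there. Spliced RNAs made up 234, with a median of 3 exons in the longest transcript, and 22 had 1 exon only. Exons of 60 members overlap those of another gene, and 10 members have a near-identical copy elsewhere (at least 95% identity over at least 50% of the transcript), so their levels may hold reads of other genes. Libraries did not overlap between the groups compared for any called member, except 1 of the 47 called higher in OGD + A-485 against Ctrl, but the same held for at least 99.6% of all called genes in each comparison and direction. Members from 1 to under 2 FPKM gave 19 of the 63 rises in OGD and 30 of the 80 falls with A-485, and those of at least 5 FPKM gave 18 and 14.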

How the data were processed

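Total RNA of BV2 cells was sequenced in 3 libraries per group. The authors discarded reads with adapters, undetermined bases or low quality, counted the rest per gene with featureCounts and deposited FPKM, computed from gene length and read count without pooling replicates. The builds named in the submitters' processing notes are GRCm38 and mm10, and the aligner and the strand setting are not given in the sources used here. FPKM values were whole multiples of 1 read for each gene at a tolerance of 0.01 reads, so reads were recovered and used for depth, intervals and the limma-voom alternative.

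Values were analysed as log2(FPKM + 0.1) for genes that averaged 0.2 FPKM or more, with limma 3.58.1 in R 4.3.3, in 1 fit over all 9 libraries with a trend in the prior variance. A call needed p below 0.01 together with a log2 fold change beyond 0.5 in either direction, and Benjamini-Hochberg adjusted p-values over all genes tested are given beside it. The test was checked on simulated data, in which only genes above a minimum of expected reads were given a change. The check therefore does not cover members with few reads. Members named with values were the 8 highest, the 5 largest rises and 5 largest falls among non-overlapping calls in OGD against Ctrl and in OGD + A-485 against OGD, every member on a list of characterised lncRNAs, those beside the 1 FPKM threshold and the nearest protein-coding genes. Genes of the loci, clusters and adjacent pairs were chosen after their values were seen. The members, lists and tests were chosen with earlier results of these data known. Alternatives were other pseudocounts, filters, scalings and variance models, limma-voom, a replicate block, an adjusted p under 0.05, other member thresholds, and leaving out each library.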

Additional observations from a re-analysis of the deposited data

How the results depend on the processing

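No called value reversed under the alternatives run. With members of at least 2 FPKM, 9 were called lower in OGD against Ctrl, 50 lower in OGD + A-485 against OGD and 37 lower in OGD + A-485 against Ctrl, and with members of at least 0.5 FPKM, 35 were called higher in OGD + A-485 against OGD, since these settings change the number of members. Leaving out 1 library at a time gave 52 to 63 members higher and 13 to 17 lower in OGD against Ctrl, 20 to 23 and 75 to 80 in OGD + A-485 against OGD, and 39 to 49 and 57 to 69 in OGD + A-485 against Ctrl. With limma-voom on recovered reads the counts were 62 and 18, 23 and 80, and 48 and 65. With the replicate number as a block they were 61 and 16, 22 and 81, and 44 and 65. Same-numbered libraries did not deviate together (mean correlation -0.0023, against 0.0011 for other pairs), so the replicate block pairs samples by number only. Of the values of single named members, 59 lost and 28 gained a call and 2499 did neither. Depth limits the 64 members with under 20 reads per library most.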
